A study of Homo sapiens with 2 samples.

Results

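The genes described here encode the machinery that makes peptides, carries them into the endoplasmic reticulum and loads them on MHC class I molecules. They are B2M, TAP1, TAP2, TAPBP, PSMB8, PSMB9, PSMB10, ERAP1, ERAP2 and NLRC5, 10 of the 19775 named genes on the array. They were chosen by function, and every probe set annotated to exactly 1 of them was taken, which gave 25 probe sets. Expression was measured on 2 oligonucleotide arrays of RNA from PC-3 cells, a human prostate cancer line established from a bone metastasis. The cells of the array labelled siCONTROL_PC-3 were transfected with a control vector that expresses a short hairpin RNA (shRNA), and those of the array labelled siSHISA2_PC-3 with a vector directed against SHISA2. Both groups thus carry an shRNA vector, each group is 1 array, and the labels name no further treatment, time or culture. The study compared the expression patterns of the 2 transfections. With 1 array per group no difference could be tested against variation between cultures, and no p-value is given.

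Values are MAS5 signals, an intensity on a linear scale that MAS5 computes from matched and mismatched probes. A ratio is always the log2 of the SHISA2 shRNA signal over the control signal, so 1 is a 2-fold difference. Signals under a floor of 47.9, the median of all signals, were raised to it, and a probe set counted as measured if at least 1 signal lay above the floor. A gene with several probe sets is represented by its brightest measured one. How far probe sets of a gene disagree served as a technical yardstick. It is the SD, over genes, of the gap in log2 ratio from the brightest to the next probe set, scaled to a single probe set by dividing by √2, and it was 0.286 over 6428 genes. Over 2827 genes whose 2 probe sets had every signal above the 75th percentile (387.3), called bright below, it was 0.15. The yardstick leaves out variation between cultures, RNA extractions and arrays, and their number limits the precision of every value. SHISA2 itself had a control signal of 3536 and a knockdown signal of 1506, a log2 ratio of -1.23. Both arrays had a trimmed mean of 500.1, and the median log2 ratio of the 12931 measured genes was 0.014.

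In class I presentation, proteasomes cut cytosolic proteins to peptides, the transporter formed by TAP1 and TAP2 pumps these into the endoplasmic reticulum, aminopeptidases trim them, and tapasin helps to load them on a heavy chain paired with beta-2 microglobulin. Interferon gamma raises most of these genes together through interferon-activated transcription factors, IRF1 among them, and the coactivator NLRC5, and many tumours express them at low levels. A known element for this response is the interferon-stimulated response element (ISRE), whose core repeats the letters GAAA.

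The RefSeq promoter table (GRCh38.p14) held windows for 9 of the 10 genes, 13 windows in all. The 250 bases before each start were searched on both strands for GAAANNGAAA, and 6 of the 9 genes had a match. Of all 35116 windows of that length in the table, 3.02% had one, and of all 27305 genes 3.71%. The stretches of 30 bases around the matches are shown because this short repeat is what these 6 genes share in sequence. Capitals mark the letters in a match, overlapping matches are joined, and each stretch is written 5′ to 3′ on the strand of its gene. TAP1 has the repeat on the opposite strand, so it reads as TTTC.
B2M, chr15:44711366-44711395, plus strand: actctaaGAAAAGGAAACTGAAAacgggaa
TAP1, chr6:32853816-32853845, minus strand: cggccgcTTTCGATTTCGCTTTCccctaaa
TAP2, chr6:32838778-32838807, minus strand: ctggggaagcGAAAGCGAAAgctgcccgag
TAPBP, chr6:33314076-33314105, minus strand: tttggagGAAAGTGAAAGTGAAAggaggaa
PSMB10, chr16:67936852-67936881, minus strand: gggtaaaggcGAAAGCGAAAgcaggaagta
ERAP2, chr5:96876460-96876489, plus strand: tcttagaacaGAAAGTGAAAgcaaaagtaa

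B2M, TAP1 and TAPBP each held 2 overlapping matches and the other 3 genes 1 match. The match began 144 bases before the start in B2M, 134 in TAP1, 58 in TAP2, 30 in ERAP2, 21 in PSMB10 and 20 in TAPBP. TAP1 and ERAP2 have 2 annotated starts each, and their matches lie before 1 of them. PSMB8, PSMB9 and ERAP1 had windows without a match. The same windows were searched for parts of other known class I elements. CCAAT was found in 4 of the 9 genes (37.0% of all genes), TGACG in 4 of 9 (24.9%) and TTCNNNGAA in 2 of 9 (8.09%). In these genes no match of 1 motif overlapped that of another. The CCAAT of TAP1 and that of PSMB9 are the same bases, read from both sides. A match is a run of letters and was not tested as a binding site.

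TAP1, by the start that has the match, and PSMB9 lie head to head, with 487 bases between their starts, and the 2 windows together cover that interval. The repeat of TAP1, with its 2 overlapping matches, was the only place in that interval that matched GAAANNGAAA. It ended 354 bases from the start of PSMB9. The 250 bases before that TAP1 start (chr6:32853705-32853954, minus strand) are shown with that repeat in capitals, because they lie between the starts of both genes.
TAP1 promoter: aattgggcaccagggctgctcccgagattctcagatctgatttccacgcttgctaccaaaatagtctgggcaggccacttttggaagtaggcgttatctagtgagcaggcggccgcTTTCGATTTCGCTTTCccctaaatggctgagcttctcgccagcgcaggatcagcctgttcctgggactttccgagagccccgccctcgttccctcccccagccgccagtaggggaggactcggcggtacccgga

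All 10 genes were measured in PC-3 cells, and 9 of them were bright in both arrays. Of all 19775 named genes 12931 were measured, and 7650 were bright in both arrays. Of the 25 probe sets 21 were measured, and 12 of these were bright. Of all 41091 named probe sets 24507 were measured, and 11812 of these were bright. The 4 unmeasured ones were 1 of TAP2, 1 of ERAP1 and 2 of ERAP2. Probe sets differ in affinity, so the order of their signals is not an order of transcript amounts.

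**Figure D1:**
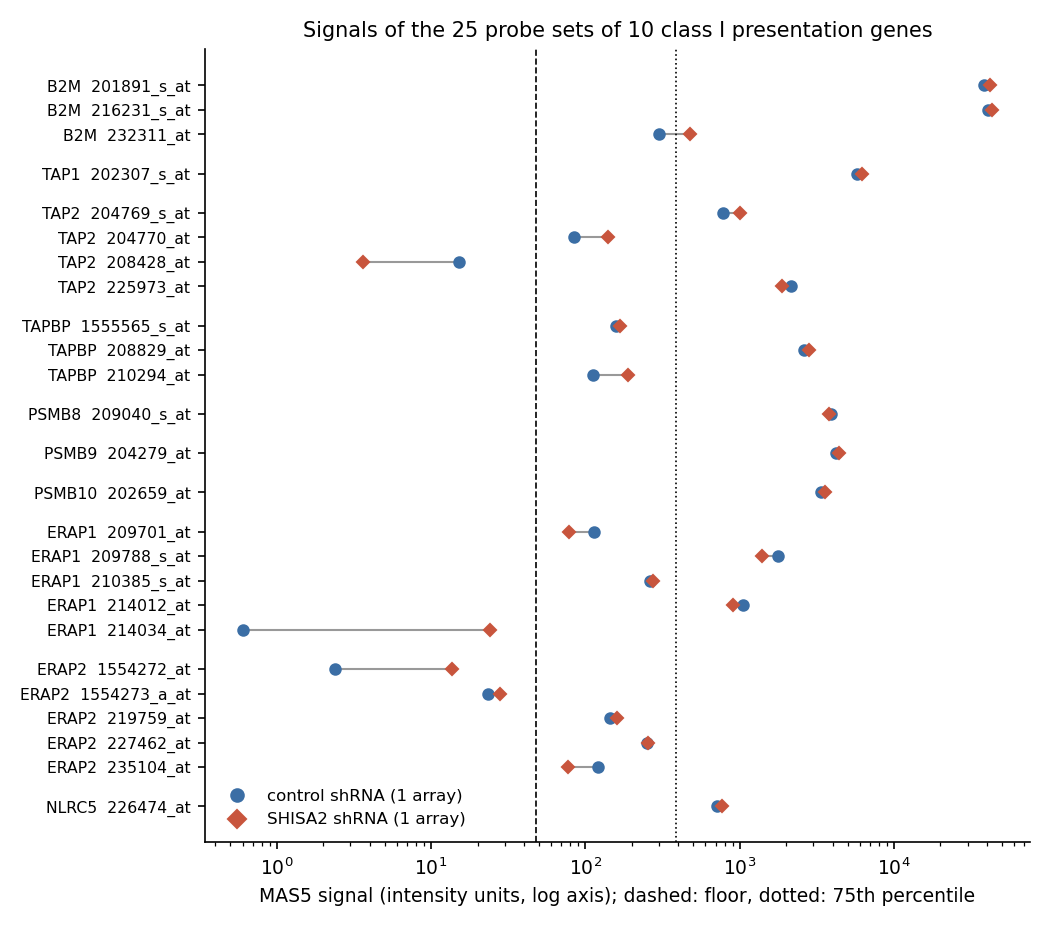
MAS5 signal (x axis, intensity units on a log scale) of each of the 25 probe sets in the control shRNA array (circles) and the SHISA2 shRNA array (diamonds), with the floor of 47.9 dashed and the 75th percentile of 387.3 dotted. Both signals of the bright probe sets nearly coincide, B2M lies at the upper end, and 4 probe sets lie under the floor in both arrays.

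The 10 genes differed little between the arrays. Their log2 ratios ran from -0.36 (ERAP1) to 0.13 (NLRC5), with a median of 0.08. None was at least 2-fold higher (0.92% of all measured genes were) or at least 2-fold lower (0.565%), and none reached 1.5-fold (5.01% higher and 3.77% lower). At the smallest threshold tried, a log2 ratio of 0.32 in size, ERAP1 was lower (12.0% of all measured genes were) and none was higher (13.1%). Ratios above 0 were found for 7 of 10, against 52.2% of all measured genes. After quantile normalization or removal of a loess trend this was 5 of 10, against 50.2% under each. After each array was centred on its median signal it was 0 of 10, against 29.8% of all measured genes. That centring moved the median of all genes from 0.01 to -0.12, and relative to the all-gene median 6 of the 10 genes lay above it both before and after. The count of ratios above 0 thus ran from 0 to 7 with the scaling. The median of the 10 genes was 0.08 as deposited, beside 0.01 for all genes, and -0.07 after median centring, beside -0.12. It was 0.04 after quantile normalization and 0.03 after loess, beside 0.0 for all genes under each. Under these 2 scalings 5 of the 10 genes lay above the all-gene median.

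**Figure D2:**
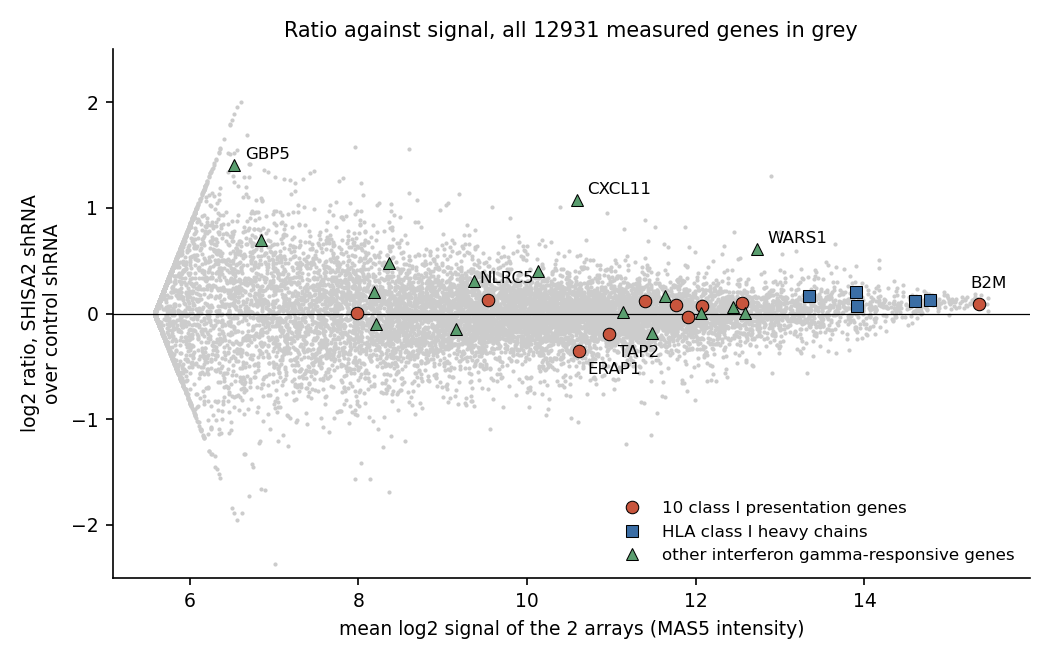
Log2 ratio of the SHISA2 shRNA over the control shRNA array (y axis) against the mean log2 signal of both arrays (x axis), 1 point per measured gene, with the 12931 genes in grey. The 10 class I presentation genes (circles) lie between -0.36 and 0.13, while CXCL11, GBP5 and WARS1 among the other interferon gamma-responsive genes (triangles) stand at 1.07, 1.40 and 0.61.

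B2M encodes beta-2 microglobulin, the light chain that every class I heavy chain needs to reach the cell surface. Its 2 brightest probe sets had control signals of 40844.5 and 38426, against knockdown signals of 43372 (log2 ratio 0.09) and 41694 (0.12). Pairs of signals are given below with the control first. These signals were at the upper end of both arrays. Among the 281 genes with both signals above the 99th percentile (14451), 81.1% had ratios above 0 and the median was 0.08, so the B2M ratio was near that of genes of like signal. After quantile normalization the ratio of the brightest probe set was -0.01. The third probe set read 298.3 and 480.1 (0.69). Leaving out probe sets that can share probes with other transcripts, whose names end in _x_at or _s_at, would make that dim one the value of the gene.

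TAP1 and TAP2 are both subunits of the peptide transporter. TAP1 has 1 probe set, which read 5789 and 6216 (0.10). TAP2 has 3 measured ones, and they did not go one way. The brightest read 2154 and 1884 (-0.19), another bright one 778.5 and 999.8 (0.36), and a dim one 84.5 and 139.5 (0.72). The bright pair thus differed by more in ratio than either differed from 0, and the mean over the 3 was 0.30, of opposite sign to the brightest. The direction for TAP2 was not settled by these probe sets.

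TAPBP encodes tapasin, the chaperone that bridges the transporter to the class I heavy chain. Its brightest probe set read 2594 and 2816 (0.12). The 2 dimmer ones read 158.6 and 166.8 (0.07), and 112.0 and 188.4 (0.75). All 3 ratios were above 0 as deposited, and that of the brightest was -0.02 after the arrays were centred on their median signals.

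PSMB8, PSMB9 and PSMB10 encode the catalytic subunits that interferon gamma brings into the proteasome in place of PSMB5, PSMB6 and PSMB7, which gives the immunoproteasome. Each has 1 probe set, and each was bright. PSMB8 read 3894 and 3814 (-0.03). PSMB9 read 4216 and 4434 (0.07), and PSMB10 3389 and 3576 (0.08). All 3 ratios were smaller in size than the bright yardstick of 0.15. The constitutive subunits had ratios of 0.01 (PSMB5, 5460 and 5511), -0.03 (PSMB6, 9654 and 9425) and 0.09 (PSMB7, 10236 and 10866). Set against the subunit it replaces, PSMB8 differed by -0.04, PSMB9 by 0.11 and PSMB10 by -0.01. Each inducible subunit thus differed in ratio from its counterpart by less than the yardstick.

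ERAP1 and ERAP2 encode the aminopeptidases that trim peptides to the length class I molecules hold. ERAP1 had the largest difference of the 10 genes. Its brightest probe set read 1775 and 1385 (-0.36), and its other bright one 1049 and 903.0 (-0.22). The dimmer ones read 113.0 and 78.8 (-0.52), and 261.0 and 275.6 (0.08), so 3 of 4 lay below 0. The ratio of the brightest was 2.38 times the bright yardstick in size, and it ran from -0.50 to -0.33 under the scalings tried. Among all measured genes it lay at the 10.2th percentile of ratios, and 6.99% of bright genes were lower by at least 0.32 on the log2 scale.

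ERAP2 was dim on all of its probe sets. The brightest read 251.9 and 252.8 (0.01), and the other measured ones 143.4 and 160.2 (0.16), and 120.8 and 77.4 (-0.64). The ratios lay on both sides of 0, at signals where the yardstick is wide. No direction could be read for ERAP2.

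NLRC5 encodes the coactivator that assembles on class I promoters. Its single probe set read 709.0 and 774.0. The log2 ratio of 0.13 was the highest of the 10 genes and was 0.84 of the bright yardstick. It was -0.01 after the arrays were centred on their median signals, and 0.13 and 0.14 after quantile normalization and loess.

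**Figure D3:**
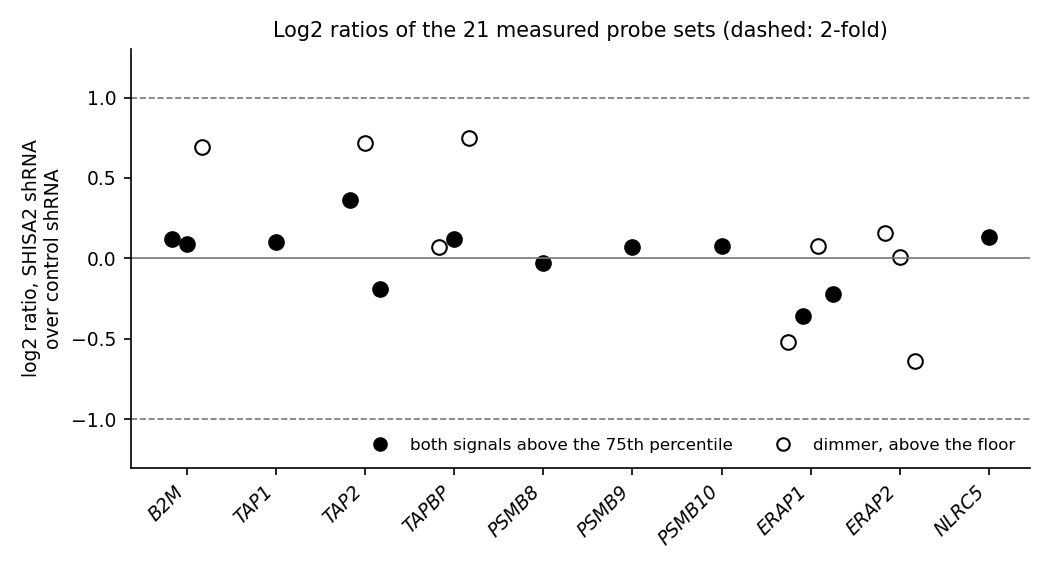
Log2 ratio of the SHISA2 shRNA over the control shRNA array (y axis) for each of the 21 measured probe sets, by gene; filled points are bright in both arrays, open points are dimmer, and dashed lines mark 2-fold. The bright points lie between -0.36 and 0.36, the open ones spread from -0.64 to 0.75, and the points of TAP2, ERAP1 and ERAP2 fall on both sides of 0.

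Of the 5 genes with several measured probe sets, B2M and TAPBP had all ratios in 1 direction, 2 of 5 against 45.6% of all such genes. Over probe sets, 15 of the 21 measured had ratios above 0, against 52.1% of all named ones. The 12 bright probe sets had a median of 0.08 and the 9 dimmer ones also 0.08. Dim probe sets gave every ratio beyond 0.36 in size.

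The genes TAP2, PSMB8, TAP1 and PSMB9 follow each other on chromosome 6, with only the noncoding PSMB8-AS1 among them in RefSeq. Their ratios in that order were -0.19, -0.03, 0.10 and 0.07. The head-to-head pair TAP1 and PSMB9 thus differed by little. Grouped by the ISRE letters, the 6 genes with a match had ratios from -0.19 to 0.12 (median 0.08) and the 3 without from -0.36 to 0.07 (median -0.03). The groups overlap.

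**Figure D4:**
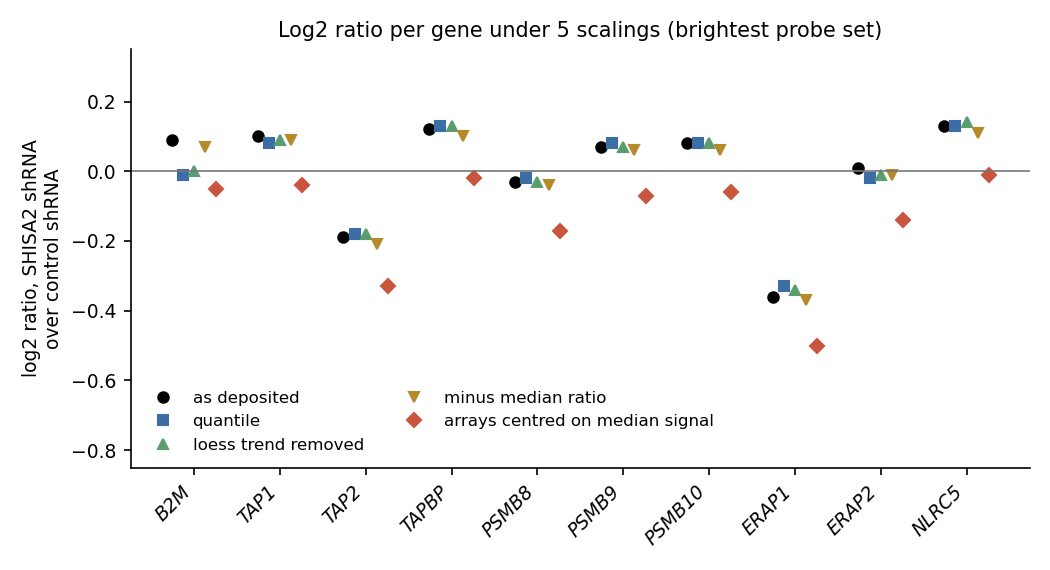
Log2 ratio of each gene's brightest probe set (y axis) as deposited and under 4 other scalings of the arrays. TAP2, PSMB8 and ERAP1 stay below 0 under all 5, while the other 7 genes are above 0 as deposited and below it once each array is centred on its median signal, with B2M and ERAP2 at or below 0 also after quantile normalization and loess.

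The class I heavy chains, which hold the peptide, were described by 5 genes with 17 probe sets, all measured. Their brightest probe sets gave ratios of 0.12 for HLA-B (23859 and 25873), 0.13 for HLA-C (26868 and 29378), 0.07 for HLA-E (15050 and 15839), 0.17 for HLA-F (9775 and 10979) and 0.20 for HLA-G (14237 and 16351). All 17 probe sets had ratios above 0 as deposited, from 0.02 to 0.47, against 56.8% of all measured probe sets of the _x_at kind. The list median of 0.13 became 0.04 after quantile normalization, 0.05 after loess and -0.01 after median centring, with 2 of 5 genes then above 0. That centring put the median of all measured genes at -0.12, with 29.8% of them above 0. Most of these probe sets are of the _x_at kind and can share probes among heavy chain genes, so the 5 genes are not independent readings and a signal named HLA-G may come from other heavy chains. As for B2M, 81.1% of genes as bright as HLA-B, HLA-C and HLA-E had ratios above 0. Of class I-like molecules and ligands of the receptor NKG2D, 5 of 8 measured genes were above 0 (52.2% of all measured genes) with a median of 0.04. After median centring their median was -0.11 with 2 of 8 above 0, near the -0.12 and 29.8% of all measured genes. Without _x_at and _s_at probe sets their median was -0.07 with 3 of 7 above 0, so its sign was not settled. Among them, HFE, which regulates iron uptake, read -0.34 (probe sets from -0.98 to 0.85). FCGRT, the neonatal Fc receptor, and ULBP3 were dim, at 358.7 and 460.3 (0.36) and at 87.0 and 96.3 (0.15). ULBP1, with a knockdown signal under the floor, read 57.5 and 43.5.

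The rest of the proteasome and loading machinery had ratios from -0.29 to 0.26. Of 6 measured constitutive subunits and caps 5 were above 0 as deposited (52.2% of all measured genes), with a median of 0.10. After median centring 2 of 6 were above 0 (29.8% of all measured genes). Their median was then -0.05, and that of all measured genes -0.12. POMP, a chaperone of proteasome assembly, read 0.26, PSME3 0.20 (probe sets from -0.24 to 0.33) and PSME1, a subunit of the interferon-inducible cap, 0.11. Partners of peptide loading and folding had 2 of 7 above 0 (52.2% of all measured genes) and a median of -0.05. GANAB, a glucosidase of glycoprotein folding, read -0.29 (-0.76 on its other probe set). UGGT1, which senses misfolded glycoproteins, read -0.23 (from -0.37 to -0.03 where both signals were above the floor). The tapasin relative TAPBPL was dim at 244.8 and 276.9 (0.18, with 0.60 on its other probe set). The chaperone calreticulin, CALR, read -0.11 (probe sets from -0.11 to 0.04). Cytosolic peptidases had 2 of 6 above 0 (again beside 52.2%), with a median of -0.02. Thimet oligopeptidase, THOP1, which destroys peptides, was dim at 337.1 and 395.9 (0.23). The aminopeptidase NPEPPS read -0.09. NRDC read -0.06 (0.55 on its other probe set) and tripeptidyl peptidase, TPP2, 0.04 (probe sets from -0.20 to 0.04). By the brightest probe set, none of these lists had a gene past 1.5-fold. The other probe sets of GANAB (bright, -0.76) and TAPBPL (dim, 0.60) were past it.

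Regulators of class I genes were on both sides of 0, with 6 of 13 above it (52.2% of all measured genes) and a median of -0.03. IRF1, the interferon-induced activator of several of these promoters, was higher on both of its bright probe sets, at 1919 and 2294 (0.26) and at 1705 and 2109 (0.31), and the brighter one stayed above 0 under all scalings tried (0.12 to 0.27). Its promoter holds a match to the gamma-activated site letters TTCNNNGAA, the kind of element that STAT dimers bind, found in 6.57% of windows and shown here in capitals.
IRF1, chr5:132490878-132490907, minus strand: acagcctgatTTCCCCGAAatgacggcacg

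RFX5, a subunit of the complex through which NLRC5 reaches DNA, read 2033 and 2383 (0.23), and 405.9 and 361.3 on its other probe set (-0.17). NFYA, a subunit of the complex that binds CCAAT boxes, read -0.36 (probe sets from -0.36 to 0.63). RFXAP, another subunit of the RFX complex, was dim at 366.6 and 300.8 (-0.29, about the size of the yardstick of 0.286). CREB1, which binds cyclic AMP response elements, read -0.27 (probe sets from -0.27 to 0.06) and the NF-kB subunit RELA 0.26 (0.61 on its other, dim probe set). Genes that silence class I expression or lower its surface level had 2 of 7 above 0 (52.2% of all measured genes) and a median of -0.05. The protease SPPL3 stood at -0.18 (probe sets from -0.26 to 0.06), the methyltransferase EZH2 at -0.17, and SUSD6 and SUZ12 at 0.06 and -0.06. Of interferon receptors, their kinases and feedback inhibitors 4 of 11 were above 0 (52.2% of all measured genes), with a median of -0.04. By the brightest probe set SOCS3, which blocks cytokine receptor kinases, was the only one past 1.5-fold, at 1740 and 1116 (-0.64). Its dimmer probe sets read 93.1 and 66.1 (-0.49), and 126.3 and 44.3, the last under the floor. The type I interferon receptor chain IFNAR1 was dim at 449.5 and 337.6 (-0.41, with probe sets from -0.46 to 0.24). The kinase JAK2 was dim at 272.5 and 335.2 (0.30, with -0.05 on a probe set of like signal). The interferon gamma receptor chain IFNGR2 read -0.24.

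Other genes known to respond to interferon gamma spread more widely, from -0.18 to 1.40. Of 16 measured, 13 were above 0 (52.2% of all measured genes), with a median of 0.19, and 2 were at least 2-fold higher (0.92%). After median centring 9 of 16 were above 0, against 29.8% of all measured genes, with a median of 0.05. CXCL11, a chemokine for T cells, stood at 1.07 on its brightest probe set and 0.92 on the other. GBP5, a guanylate-binding protein, read 56.8 and 150.1 (1.40), with a control signal barely above the floor. WARS1, the cytosolic tryptophanyl-tRNA synthetase, read 5484 and 8355 (0.61), with 0.59 on its other probe set, and GBP4 read 90.4 and 146.3 (0.69, and 0.03 on its other probe set). The members of the list with small ratios included GBP1 (0.01), UBE2L6 (0.00) and TRIM22 (0.01), all bright and named after their values were seen. With the floor raised to 387.3, 12 were measured and their median was 0.04. Whether this list differs from the presentation genes was not tested, since 1 array per group allows no such test.

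**Figure D5:**
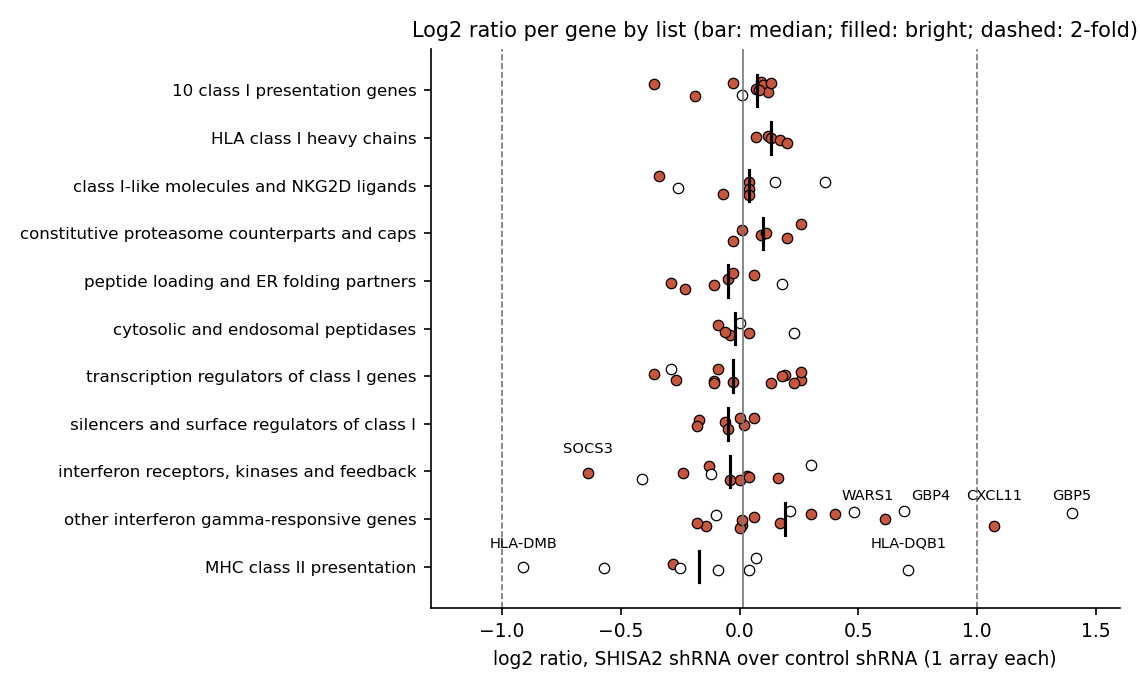
Log2 ratio of the SHISA2 shRNA over the control shRNA array (x axis), 1 point per measured gene, for the 10 class I presentation genes and 10 related lists; filled points are bright in both arrays, bars are list medians, the grey line is the median of all measured genes (0.014) and dashed lines mark 2-fold. The presentation genes cluster between -0.36 and 0.13, and CXCL11 and GBP5 are the only points beyond 2-fold.

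Genes of the class II pathway, which professional antigen-presenting cells use, were mostly dim. CIITA, the class II relative of NLRC5, was under the floor on all 3 of its probe sets, and HLA-DRA on both. Of 12 genes 8 were measured, beside 12931 of all 19775 named genes. Their median was -0.17, beside 0.014 for all measured genes, and 3 of 8 were above 0 (52.2% of all measured genes). After quantile normalization or loess 1 of 8 was above 0 (50.2% under each), as after median centring (29.8%). With the floor at the 25th percentile it was 5 of 11, with a median of -0.09. HLA-DPB1, with a knockdown signal under the floor, read 56.8 and 7.0. HLA-DMB read 131.7 and 70.2 (-0.91), HLA-DQB1 65.4 and 107.3 (0.71, and -0.04 on its other measured probe set) and HLA-DOA 87.9 and 59.1 (-0.57). HLA-DPA1 was the exception in level, at 1624 and 1336 (-0.28), with 3 of 3 probe sets measured.

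Markers of other cells that present antigen were mostly at or near the floor. The leukocyte marker PTPRC was under it on all 5 probe sets, as were CD14 and LYZ on theirs. Of 7 leukocyte markers with a probe set 4 were measured, beside 12931 of all 19775 named genes. Signals of these 4 were at most 164.6, with CD79A at 0.59. CD2 (33.2 and 64.5), ITGAM (45.3 and 59.9) and CD3E (30.6 and 57.3) had control signals under the floor, so no exact ratio is given for them. Of dendritic cell markers CD1C and FLT3 were under the floor, while LAMP3, which is also an interferon-induced gene, read 4964 and 4108 (-0.27). Of endothelial markers CDH5 read 0.75 and PECAM1 0.22, both dim, with VWF and TEK under the floor. Of fibroblast markers COL1A1 read -0.45 (probe sets from -0.45 to 0.92) and DCN 35.9 and 53.3, the first under the floor, with PDGFRB and LUM under it in both arrays. Keratin genes KRT8 and KRT18 were bright, at 2283 and 1990 (-0.20) and at 18340 and 17533 (-0.06). EPCAM was dim at 353.6 and 313.1 (-0.18), and CDH1 and KRT19 were under the floor. Of luminal markers that respond to androgen TMPRSS2 was under the floor, and KLK3 was measured on 1 of 3 probe sets (0.05). In RNA from whole cultures, fewer cells of a type and less RNA per cell cannot be told apart, and the part of these markers in any ratio above was not tested.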

How the data were processed

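Per the submitters' processing notes, the deposited intensities of probe sets come from MAS5, whose version the sources used here do not name. RNA was extracted with TRIzol and labelled from total RNA with biotin, per the labels' protocols. No scaling was added in the main setting. Of 54675 probe sets 62 were controls and were left out, 41091 had 1 gene symbol, 1801 several and 11721 none in the annotation used here. Gene identifiers of 41037 matched RefSeq (GRCh38.p14), used for names, neighbours and promoter letters. Of the 143 genes in 17 lists, 13 had no probe set of their own and are not analysed here. The alternatives were scalings, floors, a pseudocount of 1, thresholds of 1.5-fold and of 0.32 on the log2 scale, the mean over probe sets, and leaving out _x_at and _s_at probe sets. The genes and lists were chosen with earlier results of these data known. Named are SHISA2, the 10 genes, every heavy chain, proteasome counterpart and cap gene, IRF1 and RFX5, and up to 4 genes of each other list with the largest ratios in size; others are named for being under the floor, or, where the text says so, after their values were seen. With 2 arrays no likeness of pattern between genes can be computed. The code was tested on simulated data (Python 3.11.15, pandas 2.3.3, statsmodels 0.14.6).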

Additional observations from a re-analysis of the deposited data

How the results depend on the processing

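Centring each array on its median signal, which lies near background, changed the most: the median of the 10 genes became -0.07 and the number above 0 became 0, since all genes moved by a like amount. Under the other alternatives that median stayed between 0.03 and 0.09 and the number above 0 between 5 and 7, with 8 to 10 genes measured. The number at least 2-fold higher or lower was 0 under every scaling, floor and probe-set choice, and with the threshold at a log2 ratio of 0.32 in size 1 gene (ERAP1) was lower. Of 87 recomputed ratios of single genes 83 moved by less than the yardstick. The exceptions were B2M at 0.30 (mean over probe sets) and 0.69 (without _x_at and _s_at probe sets), TAP2 at 0.30 and TAPBP at 0.31 (mean over probe sets). Dim probe sets entered each of these, and for TAP2 also a bright one at 0.36. The count of 83 is not a measure of stability. Floors, the pseudocount and the mean over probe sets hardly change a gene with 1 bright probe set. Only 3 of the 10 genes kept 1 sign as deposited and after median centring, quantile normalization and loess. Over these ratios and the medians and counts of the related lists, 288 values did not move beyond their spread and 52 did, most often under median centring. Subtracting the median ratio, and counting genes above it, were added after seeing the data. No replicate could be left out. No paired analysis was possible because each group has 1 array.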
